A study of Rattus norvegicus with 56 samples.

Results

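Cultured rat hippocampal neurons were compared here by the time of collection on 21 arrays, 10 taken 8 h after magnetic stimulation or sham handling and 11 taken at 0 h, out of 56 arrays in the whole series. Members were chosen from the sample titles alone, as every sham, 1 Hz and iTBS culture collected at those 2 times. The cells came from hippocampi of Sprague-Dawley rat embryos at embryonic day 18 and were wild type, with no transgene named in the labels. The 1 Hz and iTBS (intermittent theta burst stimulation, in which pulses come in short bursts) cultures stood on the coil at 15% of the output of the machine, and the sham cultures stood in the same kind of insulated incubator with the coil about 20 cm away. All of them, sham included, went back to their home incubator afterwards, so the 0 h cultures were collected right after the session and the 8 h cultures after 8 h of undisturbed culture. At 0 h there were 4 sham, 3 1 Hz and 4 iTBS arrays, and at 8 h there were 3 sham, 4 1 Hz and 3 iTBS arrays. Untreated control cultures, 4 arrays, were collected at 0 h only and entered no test. Embryonic cultures hold developing neurons with some glia and have no blood supply or sensory input, which limits them as a model of the adult hippocampus.

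As background, neurons answer depolarization and calcium entry with a wave of transcription in stages. Immediate-early genes such as Fos, Egr1 and Npas4 encode transcription factors whose mRNAs are made within minutes and decay quickly. Later genes encode synaptic proteins, channels, secreted factors and the phosphatases and G-protein regulators that end the signal. Cultured cells also run a molecular clock of period and cryptochrome genes, make arrestins such as Txnip when glucose metabolites are plentiful, and make the RNA-binding proteins Cirbp and Rbm3 when they cool.

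The level of a gene below is its log2 signal after scaling within the array, so that 0 marks the average probe. Each array was scaled to the median SD of the arrays, so a difference of 1 is a doubling only on an array with that SD. A change is the level at 8 h minus the level at 0 h from a limma fit with arm and culture series as blocks, and the threshold was 0.05 after Benjamini-Hochberg adjustment over all probes tested. The culture series, called A to D, is the run of sample numbers in the labels. Series B, C and D had every arm at both times, which gives 9 matched pairs, whereas series A had 1 array at 8 h (1 Hz) and 2 at 0 h. On each of the 21 arrays between 69.7% and 76.8% of probes were well above background, and every pair of arrays correlated by 0.958 to 0.993. The arrays lay on 6 slides, and only slide 3 held both times of 1 series, with the 3 series B arrays at 0 h and 1 at 8 h. In series C all arrays at 0 h were on 1 slide and all at 8 h on another, and in series A and D no slide held both times either. Within these series slide and time cannot be told apart. The list of neuron markers had a mean level of 4.65 to 5.62 at 0 h and 4.71 to 5.58 at 8 h, with all 19 markers well above background on every array. Astrocyte markers ran from 5.05 to 5.92 and from 4.81 to 5.80. Oligodendrocyte lineage markers spread widely, from 2.18 to 5.26 and from 2.04 to 5.26, with all 16 well above background on every array. Their member Mbp ran from 1.82 to 9.54 over the 21 arrays. Endothelial, mural and fibroblast markers ran from 1.26 to 2.51 and from 1.18 to 2.71. Choroid plexus and ependymal markers ran from -0.32 to 1.77 and from -0.61 to 1.89. Microglia markers ran from -1.31 to 0.90 and from -1.32 to 0.16. Of the 13 microglia markers on the array 6 were well above background on every array. Only Ptprc, the leukocyte marker CD45, was never well above background. In RNA from whole cultures, fewer cells of a type and less RNA per cell cannot be told apart.

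Between 0 h and 8 h, 602 genes rose and 268 fell among 12969 genes tested, which is 4.64% and 2.07%. The counts within each gene list below are to be read beside these shares of all genes. Over probes, with or without a gene symbol, 2088 of 32492 passed (6.43%), 1394 of them higher and 694 lower. With 75th percentile scaling in place of the scaling used here 53.7% of the probes that passed were higher, against 66.8%. The median change of all genes was 0.00067 on the log2 scale. Most changes were modest, with a median size of 0.40 among the 870 genes that passed and only 25 genes past 2-fold at this scaling. In 479 of these genes all 9 matched pairs moved the same way, 344 upward and 135 downward. The pairs lie within series B, C and D, and arrays of the same series deviated together. They are therefore not 9 independent comparisons, here and for the single genes below. The same arrays chose the genes, so the count is a description. The ranges of the 2 times did not overlap in 9 genes (0.0694% of those tested). The count of probes was 1294 without 1 Hz at 0 h replicate 1 and 1321 without iTBS at 8 h replicate 1, both of series B, and 193 without series B altogether. It was 122 with no series block, and over the means of each series and time limma called no probe (2454 unadjusted, smallest adjusted p 0.56).

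**Figure D1:**
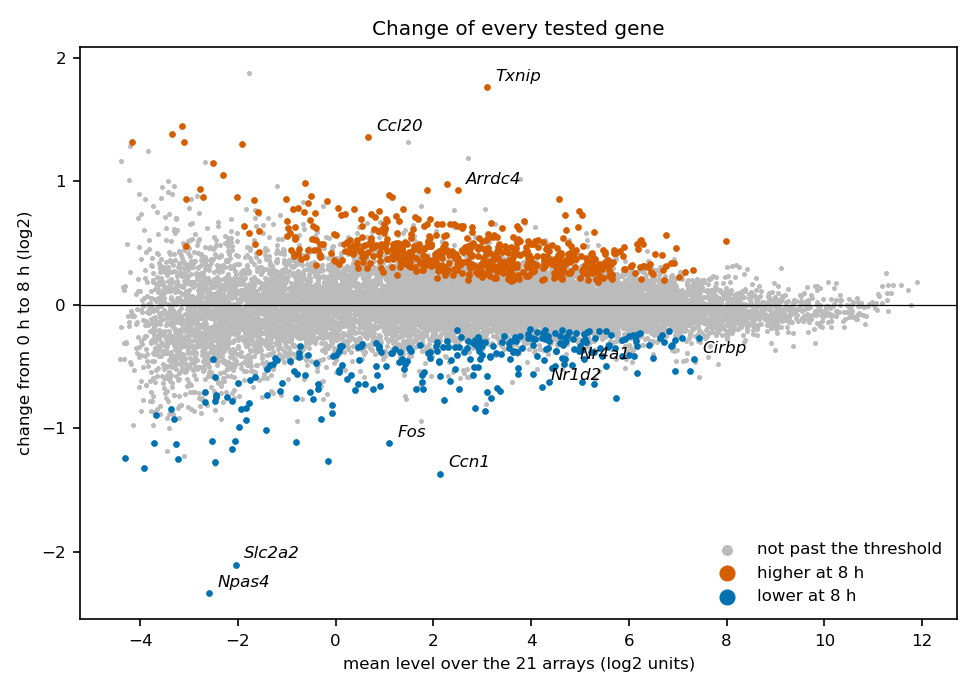
Change from 0 h to 8 h (log2, vertical axis) of each tested gene against its mean level over the 21 arrays (log2 units, horizontal axis). Orange and blue points are the 602 genes that rose and the 268 that fell, grey points did not pass, and Npas4 and Txnip are the named genes farthest below and above 0.

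Immediate-early transcription factors were the group with the most members that fell. Of 24 tested, 8 fell and none rose, with a median change of -0.39. The 8 were Npas4, Fos, Atf3, Egr1, Nr4a2, Egr4, Nr4a3 and Nr4a1, and of the other 16 no change passed, Egr2 (-0.59), Klf4 (-0.57) and Fosb (-0.55) among them. The members that were not lower included Fosl1 (0.63) and Klf10 (0.31), neither past the threshold.

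Npas4, a transcription factor of neurons that is induced by calcium entry, had the largest fall. At 0 h its level ran from -3.95 through a median of -1.03 to -0.17, and at 8 h from -4.74 through -4.14 to -2.74. All 9 matched pairs were lower at 8 h, and the times overlapped only through series C, whose 3 arrays at 0 h were already at -2.68, -3.62 and -3.95. The probe was well above background on 8 of the 11 arrays at 0 h and on none of the 10 at 8 h. The fitted change of -2.34 (SE 0.35, adjusted p = 0.00127) therefore includes signal near background. At this scaling the level was at least 2.86-fold lower at 8 h, whereas with normexp background correction the change was -0.54 (adjusted p = 0.00234).

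Fos, a subunit of the AP-1 factor, was well above background on every array. In sham cultures its level was 2.30, 2.74, 0.74 and 1.83 at 0 h in series A to D, and 0.78, -1.18 and 1.38 at 8 h in series B to D. In 1 Hz cultures it was 3.20, 0.04 and 2.37 at 0 h in series B to D, and 0.90, 0.99, -1.07 and 1.34 at 8 h in series A to D. In iTBS cultures it was 1.36, 2.20, -1.03 and 2.09 at 0 h in series A to D, and 1.18, -1.20 and 1.85 at 8 h in series B to D. Every one of the 9 matched pairs was lower at 8 h, while the ranges of the 2 times overlapped, with and without series C, which was the lowest at both. The mean of the 0 h arrays was 1.62 ± 1.25 (SD, n = 11), that of the 8 h arrays 0.50 ± 1.17 (SD, n = 10), and the fitted change was -1.12 (SE 0.21, adjusted p = 0.00444).

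Egr1, a zinc-finger factor of activated neurons, ran from 1.86 through 3.26 to 4.25 at 0 h and from 1.22 through 2.39 to 3.68 at 8 h, with 8 of 9 pairs lower. Its change was -0.84 (SE 0.19, adjusted p = 0.0162), and the related Egr4 changed by -0.71 (SE 0.13, adjusted p = 0.00362). The 3 orphan nuclear receptors of the Nr4a family all fell. Nr4a2 changed by -0.76, Nr4a3 by -0.63 and Nr4a1 by -0.49, and at 8 h the 10 arrays of Nr4a1 lay within 4.28 to 4.97 against 4.61 to 5.68 at 0 h. Atf3, a stress-induced factor, changed by -0.86 (SE 0.19, adjusted p = 0.0132) with 7 of 9 pairs lower.

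A few feedback regulators of MAP kinases and effectors fell too. Of 17 feedback regulators tested 3 fell and none rose, and these were the phosphatases Dusp1 (-0.69, adjusted p = 0.0166), Dusp5 (-0.48, adjusted p = 0.00402) and Dusp6 (-0.42, adjusted p = 0.0104). Dusp2 was at 0.46 and did not pass. The median of this group was -0.07, with 7 of 17 changes above 0, and Dusp1 changed by -0.33 with normexp background correction. Among 48 effector genes of neuronal activity 4 fell and 1 rose, with a median of -0.13. Rgs2 (-0.62, SE 0.12) and Rgs4 (-0.43, SE 0.08), which speed the switching off of G proteins, Per1 (-0.50) and the kinase Plk2 (-0.30) fell, and Sorcs3, a sorting receptor, rose by 0.21. Rgs2 ran from 3.73 through 4.89 to 5.22 at 0 h and from 3.64 through 3.92 to 4.81 at 8 h, with 8 of 9 pairs lower. The change was -0.41 for Arc (adjusted p = 0.0855) and -0.52 for Bdnf (adjusted p = 0.145), so neither passed. Arc encodes a protein of spines that drives receptor uptake, and for Bdnf, a neurotrophin, sham and 1 Hz changed by -0.83 and -0.78 and iTBS by 0.07, and the difference between arms did not pass in any gene.

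**Figure D2:**
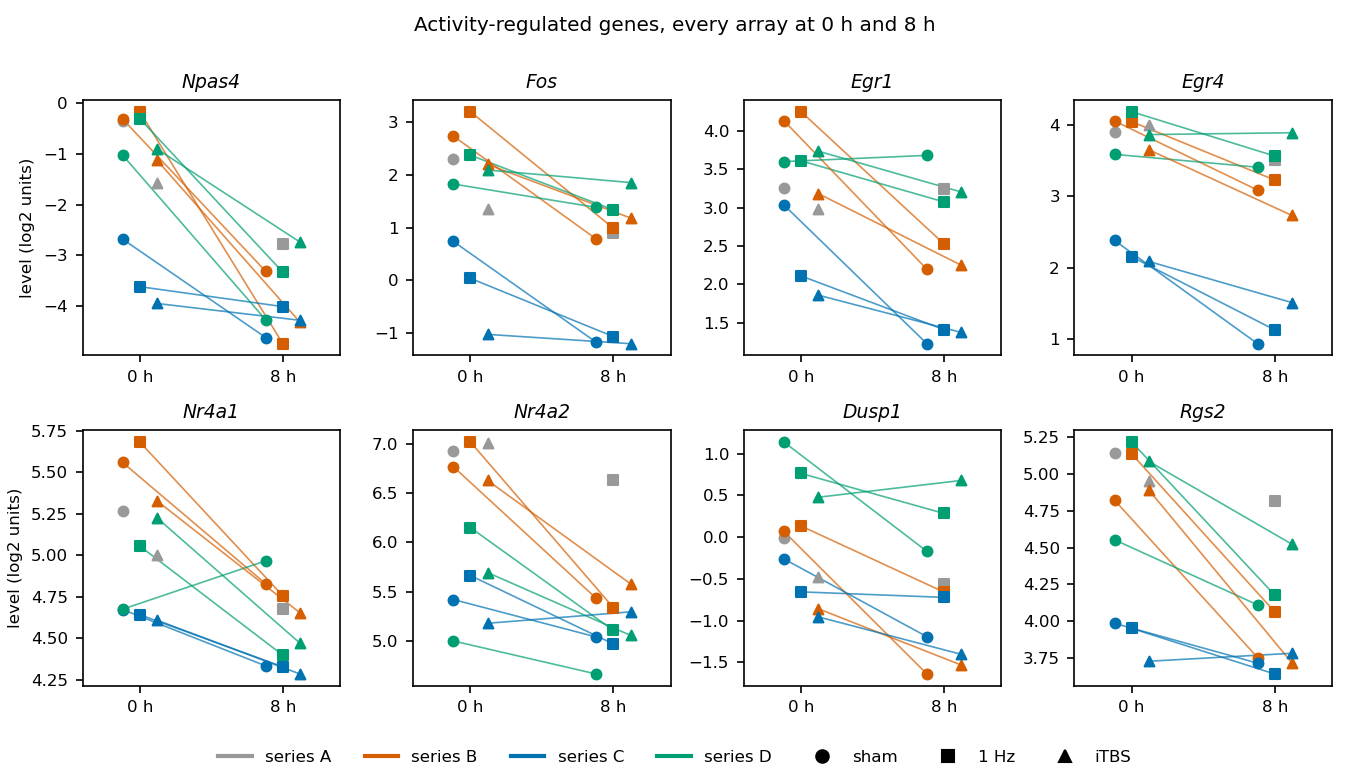
Level (log2 units, vertical axis) of 8 activity-regulated genes on each array at 0 h and 8 h, coloured by culture series, with sham as circles, 1 Hz as squares and iTBS as triangles, and lines joining the matched arrays. Lines slope down in all 9 pairs for Npas4 and Fos, and series C (blue) starts lowest for Npas4, Fos, Egr1, Egr4 and Rgs2.

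Promoter sequence is shown for 2 of these genes because cAMP response elements (CREs), bound by CREB, are the best known input of calcium signals to them. The sequences are the 250 bases before the RefSeq transcription start on build GRCr8, 5′ to 3′. Capitals mark the full CRE and the E-box in Dusp1 and the CRE half-sites in Nr4a1. Dusp1 lies at chr10:17184603-17184852 on the plus strand and holds a full CRE, TGACGTCA, that begins 124 bases before the start, and an E-box, CACGTG, that begins at 107. Nr4a1 lies at chr7:134259888-134260137 on the plus strand and holds 4 CRE half-sites (TGACG or its reverse complement), at 246, 226, 82 and 53 bases before the start.
Dusp1: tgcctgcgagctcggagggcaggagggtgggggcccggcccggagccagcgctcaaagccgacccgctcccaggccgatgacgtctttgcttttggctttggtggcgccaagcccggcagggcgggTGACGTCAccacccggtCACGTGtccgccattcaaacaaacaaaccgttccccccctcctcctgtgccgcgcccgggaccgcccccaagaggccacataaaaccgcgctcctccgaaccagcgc
Nr4a1: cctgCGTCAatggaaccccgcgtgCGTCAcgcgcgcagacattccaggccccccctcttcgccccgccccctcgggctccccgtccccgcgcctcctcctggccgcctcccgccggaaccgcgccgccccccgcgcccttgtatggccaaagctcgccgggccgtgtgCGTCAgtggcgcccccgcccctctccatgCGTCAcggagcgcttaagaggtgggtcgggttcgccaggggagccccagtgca
Searched on both strands, the full CRE was found in 1.59% and the half-site in 18.2% of 33469 promoters of this length, and the half-site also counts each full CRE. Of the 24 immediate-early factors 16 had a promoter entry, 3 of them with a full CRE and 10 with a half-site. Such a match describes the letters only.

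Alpha-arrestins, a family of which some members limit glucose uptake, moved the other way. Of 5 tested 3 rose and none fell, and all 5 changes were above 0, with a median of 0.75. Txnip, the thioredoxin-interacting protein that is transcribed when glucose metabolites are plentiful, had the largest rise of any gene named by the rule. In sham cultures its level was 1.96, 0.33, 3.47 and 3.79 at 0 h in series A to D, and 3.26, 5.02 and 5.05 at 8 h in series B to D. In 1 Hz cultures it was -0.50, 3.45 and 2.98 at 0 h in series B to D, and 1.93, 3.06, 4.92 and 4.32 at 8 h in series A to D. In iTBS cultures it was 1.75, -0.67, 4.10 and 4.06 at 0 h in series A to D, and 2.80, 5.08 and 4.82 at 8 h in series B to D. The 8 h array was higher in all 9 pairs, and the ranges overlapped, since 0 h arrays of series C and D lay above 8 h arrays of series A and B. The change was 1.76 (SE 0.29, adjusted p = 0.00197), or 3.38-fold at this scaling, and 1.49 with normexp background correction.

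The size of the Txnip rise differed between series (adjusted p = 0.00456), with 3.32 in series B, 1.33 in C, 1.12 in D and 0.07 in A, where the only 8 h array was of another arm than those at 0 h. Without series B the rise was 1.13 (adjusted p = 0.0111). Its paralogue Arrdc4 ran from 0.12 through 2.32 to 3.68 at 0 h and from 1.90 through 3.40 to 3.93 at 8 h, higher in all 9 pairs. The change was 0.92 (SE 0.16, adjusted p = 0.00326). Arrdc3, an adaptor for receptor turnover, rose by 0.75 (SE 0.19, adjusted p = 0.0265), while Arrdc1 (0.29) and Arrdc2 (0.20) did not pass. In series A Arrdc4 changed by -0.13 and Arrdc3 by -0.63.

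Of the Arrdc4 promoter the same window is printed because carbohydrate response elements, through which glucose acts on Txnip and Arrdc4, are built from E-boxes. It lies at chr1:131793426-131793675 on the minus strand, and its E-box, in capitals, begins 177 bases before the start.
Arrdc4: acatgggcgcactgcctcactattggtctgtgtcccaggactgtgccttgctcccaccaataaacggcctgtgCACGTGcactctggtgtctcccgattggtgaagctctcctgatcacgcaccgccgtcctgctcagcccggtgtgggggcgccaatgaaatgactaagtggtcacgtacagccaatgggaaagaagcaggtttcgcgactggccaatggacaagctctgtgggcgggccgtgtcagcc
The motif CACGTG, which reads the same on both strands, was found in 5.59% of the 33469 promoters. Of the 4 arrestins with a promoter entry 1, Arrdc4, held it. A single match describes the letters only and does not show a carbohydrate response element.

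**Figure D3:**
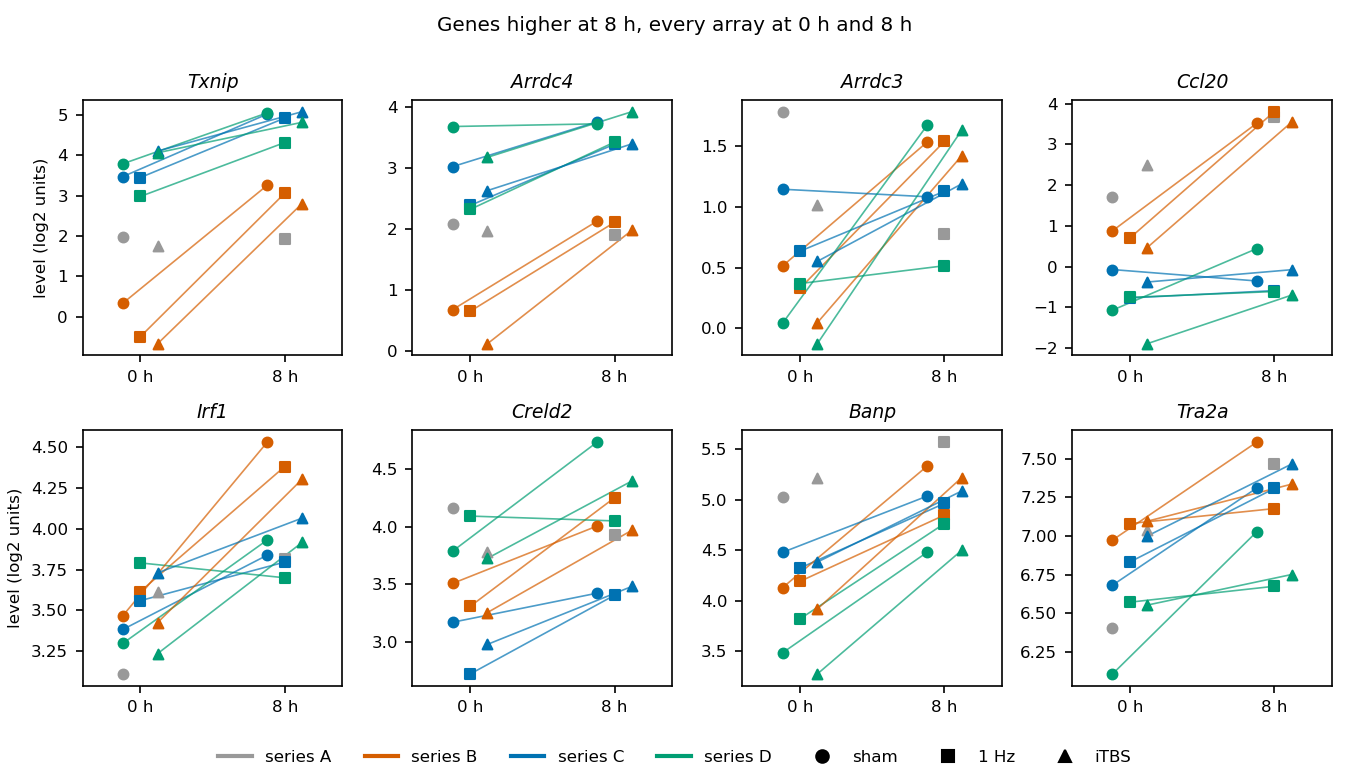
Level (log2 units, vertical axis) of 8 genes that rose, on each array at 0 h and 8 h, with series, arms and matched arrays drawn as for the activity-regulated genes. Txnip and Arrdc4 rise in all 9 pairs from a low start in series B (orange), and the rise of Ccl20 is largest in series B.

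Of 21 genes of the circadian clock and its output 5 fell and 1 rose, with a median of -0.17. By series the median was -0.23 in B, 0.08 in C and -0.19 in D. Nr1d2, a repressor of the clock also called REV-ERB beta, ran from 3.66 through 4.68 to 4.91 at 0 h and from 3.27 through 3.99 to 4.48 at 8 h, lower in all 9 pairs. Its change was -0.66 (SE 0.10, adjusted p = 0.00146). The period gene Per1 changed by -0.50 (SE 0.11, adjusted p = 0.0106) with all 9 pairs lower, Per2 by -0.39 (adjusted p = 0.047), the cryptochrome Cry2 by -0.27 and the kinase Csnk1e by -0.26. Dbp, an output factor that binds D-boxes, rose by 0.27 (SE 0.06, adjusted p = 0.0198) in all 9 pairs. The core genes Bmal1 (-0.02) and Clock (0.05) did not pass, nor did Nr1d1 (-0.29, adjusted p = 0.371).

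The Per2 promoter window is printed because D-boxes link Dbp to the period genes. It lies at chr9:99496994-99497243 on the minus strand, with a D-box (TTATGNAA, in capitals) that begins 192 bases before the start, a motif found in 3.28% of the promoters on either strand.
Per2: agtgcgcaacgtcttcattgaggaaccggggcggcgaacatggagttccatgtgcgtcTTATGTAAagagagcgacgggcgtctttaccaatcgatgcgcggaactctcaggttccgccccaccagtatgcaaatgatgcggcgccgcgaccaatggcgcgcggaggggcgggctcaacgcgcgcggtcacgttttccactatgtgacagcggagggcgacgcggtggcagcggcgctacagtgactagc
Of the 20 clock genes with a promoter entry 1 held a D-box and 5 an E-box.

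Cirbp, a cold-inducible RNA-binding protein that cells make more of when they cool, fell in 8 of 9 pairs. It ran from 7.30 through 7.50 to 7.76 at 0 h and from 6.89 through 7.06 to 7.49 at 8 h, so that 2 narrow ranges overlapped slightly. The change was -0.44 (SE 0.07, adjusted p = 0.00194), and it lay between -0.48 and -0.41 with any 1 array left out. The related Rbm3 changed by -0.17 (adjusted p = 0.499), with 0.28 in sham and -0.49 in iTBS. Of 25 heat shock genes tested 2 rose and none fell, the chaperone Hspa1a (0.38) and the co-chaperone Chordc1 (0.33), with a median of 0.12.

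Inflammatory signalling rose in some genes and, among series B, C and D, mostly in B. Of 25 cytokine, chemokine and NF-kB feedback genes tested 5 rose and none fell, with a median of 0.29. Ccl20, a chemokine that attracts lymphocytes, ran from -1.89 through -0.07 to 2.49 at 0 h and from -0.70 through 0.18 to 3.80 at 8 h. Its change was 1.36 (SE 0.32, adjusted p = 0.0198), and by series it was 2.94 in B, 0.07 in C and 0.95 in D (adjusted p for the difference = 0.0141). In series A, whose only 8 h array was of another arm than those at 0 h, it was 1.58. Irf1, an interferon response factor, rose by 0.53 (SE 0.10, adjusted p = 0.00534), with 0.90, 0.34 and 0.41 in series B, C and D. Nfkb2 (0.58), the growth factor Csf1 (0.62) and the feedback inhibitor Socs3 (0.50) rose too. The difference between series passed in 10 of the 25 genes. In series B 19 of the 25 changes were above 0 with a median of 0.85, against 11 with a median of -0.01 in series C and 13 with a median of 0.03 in series D. Microglia markers had no member past the threshold in either direction, with a median of -0.05.

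Genes of protein folding, RNA splicing and DNA damage had a few members that rose. Of 23 unfolded protein response genes 3 rose, Creld2 (0.51, adjusted p = 0.00506), Sdf2l1 (0.45) and Pdia4 (0.38), which act in folding in the endoplasmic reticulum, while the list median was -0.05. The chaperone Hspa5 (0.09) and the stress factor Ddit3 (0.13) did not pass, and none of 29 integrated stress response genes did. Of 17 SR proteins and CLK kinases 3 rose, namely Tra2a (0.46, adjusted p = 0.00727), Srsf9 (0.44) and the kinase Srpk1 (0.35). Of 19 p53 and DNA damage genes the nuclease Aen (0.57), Phlda3 (0.61) and the polymerase Polk (0.33) rose, and Plk2 fell. Of 37 cell cycle genes 1, the thymidylate synthase Tyms (0.41), rose, against 4.64% of all genes. In the fit, 30 of 37 changes were above 0 with a median of 0.12. By series 35 were above 0 in B (median 0.385), 14 in C (-0.02) and 27 in D (0.04).

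Receptors, channels and secreted peptides of neurons moved in single members. Among 15 AMPA and kainate receptor genes Grik1 (-0.62, SE 0.09, adjusted p = 0.00123) and Gria4 (-0.38) fell in all 9 pairs. No gene passed among 7 NMDA receptor, 15 GABA receptor and 8 metabotropic glutamate receptor genes, and the GABA receptor changes had a median of -0.13. Among 76 potassium channel genes 3 rose and 2 fell, near the shares of all genes (4.64% and 2.07%). Kcna1, a delayed rectifier that limits firing, fell by 0.64 on the log2 scale (adjusted p = 0.00313) in all 9 pairs, from 4.65, 5.82 and 6.89 (lowest, median and highest) to 4.33, 4.91 and 5.49. The calcium-activated channel Kcnn3 rose by 0.65 (adjusted p = 0.0166), Kcnj14 by 0.27 and Kcnk10 by 0.21, and Kcnq3 of the M current fell by 0.23. Among 32 sodium and calcium channel genes Scn1a rose by 0.31 and the subunit Cacng6 changed by -0.52, again near the shares of all genes. Of 33 neuropeptide and granule genes 3 fell and 27 changes were below 0, with a median of -0.22. The peptides Adcyap1 (-0.57) and Nts (-0.54) and the granin Scg3 (-0.30) were the 3. Of 47 axon guidance genes Efna2 (0.53), Unc5b (0.35) and Plxna2 (0.34) rose and Ntng1 (-0.45) fell, also near the shares of all genes.

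Matrix, insulin and lipid genes were mixed. Of 36 matrix genes 1 rose and 1 fell, near the shares of all genes (4.64% and 2.07%). Ccn1, an early matricellular protein also induced by serum and stretch, ran from 0.73 through 2.56 to 5.12 at 0 h and from 0.18 through 0.79 to 3.25 at 8 h, lower in all 9 pairs. Its change was -1.37 (SE 0.23, adjusted p = 0.00219), and by series it was -2.48 in B, -0.76 in C and -1.13 in D. The aggrecanase Adamts4 rose by 0.71 (adjusted p = 0.00842) in 8 of 9 pairs. Among 24 glucocorticoid and FoxO targets 1 rose and 2 fell, Per1 being the third. The insulin receptor Insr rose by 0.48 (adjusted p = 0.00444), and the kinase Sgk1 changed by -0.44 (adjusted p = 0.00839). In the cholesterol list Srebf1 alone passed (-0.53, adjusted p = 0.0478), and Hmgcs1 (0.05) did not. Of 33 hypoxia genes the collagen hydroxylases P4ha1 (0.32) and P4ha2 (0.41) rose, a share near that of all genes, and Vegfa (0.18) did not pass. Cd55, an inhibitor of complement, rose by 0.83 (adjusted p = 0.00151) in all 9 pairs, alone among 17 complement genes.

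The other genes with the largest changes that held in all 9 pairs were of many kinds. Besides Txnip, Arrdc4 and Cd55, the 12 largest rises included Atg16l2 (0.98), a relative of the autophagy protein ATG16L1, Hils1 (0.93), Slc45a3 (0.88), Capns2 (0.87), Cel (0.86), Banp (0.86), Tnfsf9 (0.79), Nhlrc1 (0.79) and Hsd17b1 (0.77). Banp, a nuclear matrix protein that binds CpG-rich promoters, had the smallest adjusted p of these (0.000187), from 4.20 ± 0.59 (SD, n = 11) on the 0 h arrays to 4.98 ± 0.35 (SD, n = 10). Nhlrc1, the ubiquitin ligase malin, was the only gene of this set whose ranges did not overlap, from -1.42 to 0.14 at 0 h against 0.16 to 0.67 at 8 h. Slc2a2, the glucose transporter GLUT2, changed by -2.11 (SE 0.41, adjusted p = 0.00568), but it was well above background on all 11 arrays at 0 h and on 3 of 10 at 8 h, and with normexp background correction the change was -0.49. The other largest falls included Ccn1, Fos, Ctrc (-1.02), the opsin relative Rrh (-0.93), Tnnc2 (-0.87), Fam222a (-0.82), Tex26 (-0.78), the natriuretic peptide Nppc (-0.76), Pecam1 (-0.70) and Fam181a (-0.69). With normexp the change was over 1.5 times smaller in 17 of the 86 named genes that passed, among them Ctrc at -0.35, Slc45a3 at 0.20, Tnfsf9 at 0.29, Cel at 0.42 and Fam222a at -0.40. Tex26 (at -0.19) and Pecam1 (at -0.22) then no longer passed. Pecam1 and Pdgfrb (-0.57) are markers of endothelial and mural cells, and they were 2 of 15 such markers to pass, with a list median of -0.01.

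Several groups had no gene past the threshold. These were 19 neuron, 15 astrocyte, 16 oligodendrocyte lineage, 11 microglia and 7 choroid plexus markers, 28 presynaptic and 22 postsynaptic genes, 19 neurotrophin and receptor genes, 74 ribosomal proteins and 72 genes of the respiratory chain and ATP synthase. Ribosomal proteins had a median of -0.06 and the respiratory chain of -0.13. In series B, C and D 61, 72 and 68 of the 74 ribosomal proteins were lower at 8 h. For the 72 respiratory genes the counts were 61, 66 and 63, and for all 12969 genes 6037, 6686 and 6850. The list medians ran from 0.40 in sham to -0.53 in iTBS for the first and from 0.07 to -0.38 for the second. The difference of these medians between arms was not tested. Gfap, the astrocyte filament, changed by 0.32 (adjusted p = 0.453), with 1.36 in series B against 0.16 in both C and D.

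**Figure D4:**
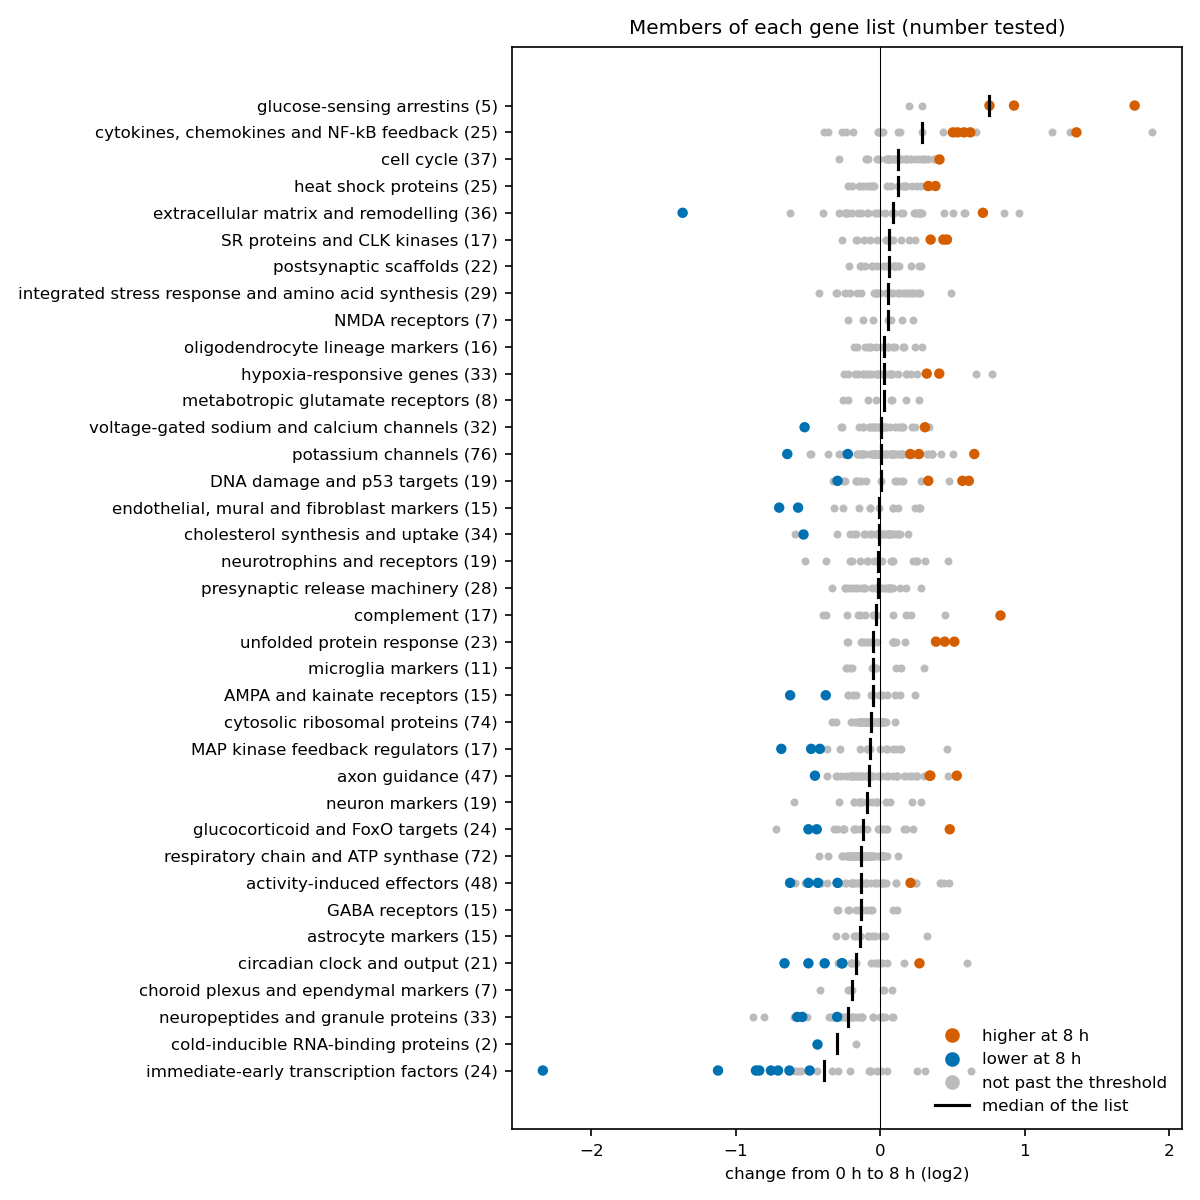
Change from 0 h to 8 h (log2, horizontal axis) of each member of 37 gene lists, with the number tested in brackets, ordered by the median change (black bar). Immediate-early transcription factors sit at the bottom with 8 members that fell (blue), and the arrestins at the top with 3 that rose (orange).

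The arms were then taken apart to ask whether stimulation altered this change. Within sham cultures 96 probes passed (0.295%), 53 higher and 43 lower, in cultures that received no stimulation. Within 1 Hz cultures 1 probe passed (0.00308%) and within iTBS cultures 110 (0.339%). These counts moved with single arrays. The iTBS count lay between 3 (without iTBS at 0 h replicate 1 or iTBS at 8 h replicate 1) and 1745 (without 1 Hz at 8 h replicate 1) and moved by over 1.5 times without any array but 1 Hz at 8 h replicate 2. The sham count was 1, 21 and 22 without sham at 0 h replicates 3, 1 and 4, and 4, 636 and 2 without sham at 8 h replicates 1, 2 and 3. It was 55 without 1 Hz at 8 h replicate 3 or iTBS at 0 h replicate 3, and 160 without 1 Hz at 8 h replicate 1. The 1 Hz count was 31 without 1 Hz at 8 h replicate 1. No probe passed the limma test of a difference in change between arms (none of 32492). Unadjusted, 3820 were below 0.05, and the smallest adjusted p was 0.0942. For Fos the change was -1.46 in sham, -1.44 in 1 Hz and -0.44 in iTBS, for Npas4 -2.75, -2.57 and -1.67, and for Txnip 1.76, 1.87 and 1.63.

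The culture series, by contrast, differed in their change. The test of a difference passed in 616 genes (4.75%), 47 of them among the 870 that moved on average. Over probes the count was 1248, and 155 without 1 Hz at 8 h replicate 1, the only array of series A at that time. Series A had the direction of the full comparison in 62 of the 86 named genes that passed. Its arrays helped to choose those genes, and its 8 h array was of another arm than those at 0 h, so this count is a description. Of those 870 genes 869 moved in the direction of the fitted change in series B, 863 in C and 865 in D, with a median size of 0.58, 0.29 and 0.36. These 3 counts use the arrays that chose the genes and are a description only. On slide 3, where the 3 series B arrays at 0 h lay beside sham at 8 h replicate 1, the change was 3.54 for Txnip, -1.93 for Fos and -2.78 for Npas4. These 4 arrays helped to choose the genes, so the values are a description too. Slides 2 and 5 held both times of different series, and there Txnip changed by -2.13 and 1.14 and Fos by -1.19 and 1.94. Without series B 12 of the 86 named genes that passed still did, Txnip (1.13), Arrdc4 (0.68) and Nr1d2 (-0.49) among them, while Fos changed by -0.85 (adjusted p = 0.146) and Npas4 by -1.83 (adjusted p = 0.061). With slide added as a fixed block 713 probes passed, and Txnip changed by 2.33 (adjusted p = 0.0586), Fos by -2.07 (adjusted p = 0.0274) and Npas4 by -2.75 (adjusted p = 0.0227).

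The other times place 8 h within the course. These comparisons share the 8 h arrays and are given side by side, from a fit of 51 arrays at all times. Medians are listed below in the order of collection, from 0 h to 48 h. The mix of series differs between the times, and the medians are not adjusted for it, unlike the fitted changes. Against 2 h 488 genes passed (3.76%), at 24 h against 8 h 1516 (11.7%), and at 48 h against 8 h 3592 (27.7%). Txnip had medians of 2.98, 3.60, 4.57, 4.59 and 4.44. It was 1.68 higher at 8 h than at 2 h (adjusted p = 0.0079) and did not differ past the threshold at 24 h against 8 h (0.28, adjusted p = 0.73). The Rgs2 median was 4.89, 4.77, 3.92, 3.88 and 4.18, and its change from 2 h to 8 h was -0.64 (adjusted p = 0.0175). Fos had medians of 2.09, 2.04, 0.94, 0.45 and 1.44, and its change from 2 h to 8 h of -1.03 did not pass (adjusted p = 0.31).

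Nr1d2 was lowest at 8 h, with a median of 3.99 against 4.68 at the start, 4.59 at 2 h and 4.72 at the end. It was 0.72 higher at 24 h than at 8 h (adjusted p = 3.32e-05) and 0.89 higher at 48 h. Dbp had medians of 4.36, 4.50, 4.73, 6.18 and 6.26, and most of its rise came after 8 h, by 1.04 at 24 h. Rbm3 did not pass between 0 h and 8 h and changed by -0.87 at 24 h and by -1.20 at 48 h against 8 h. Cirbp had medians of 7.50, 7.42, 7.06, 6.97 and 6.82.

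Untreated control cultures at 0 h had other medians than the treated cultures at 0 h for several of these genes. Their Fos levels ran from -1.52 to 2.23 with a median of 0.47, against 0.94 at 8 h and 2.09 at 0 h. These medians hold unlike series, since 2 controls were of series A and 2 of series C. Series C was the lowest for Fos at both times, and the part of the series in this difference was not tested. The control medians were 3.69 for Txnip, 3.17 for Arrdc4, 4.07 for Nr1d2 and 6.85 for Cirbp, all on the 8 h side of the 0 h medians. The mix of series differs there too. Among the 602 genes that rose, the control mean was nearer to the 8 h mean in 87.9%, among the 268 that fell in 57.1%, and among the 12099 genes that did not pass in 55.1%. Within series C the shares were 82.7%, 77.2% and 60.8%. The calls used no control array, but they used the 0 h and 8 h arrays. The 4 controls came from series A and C only, so these shares and medians are a description.

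**Figure D5:**
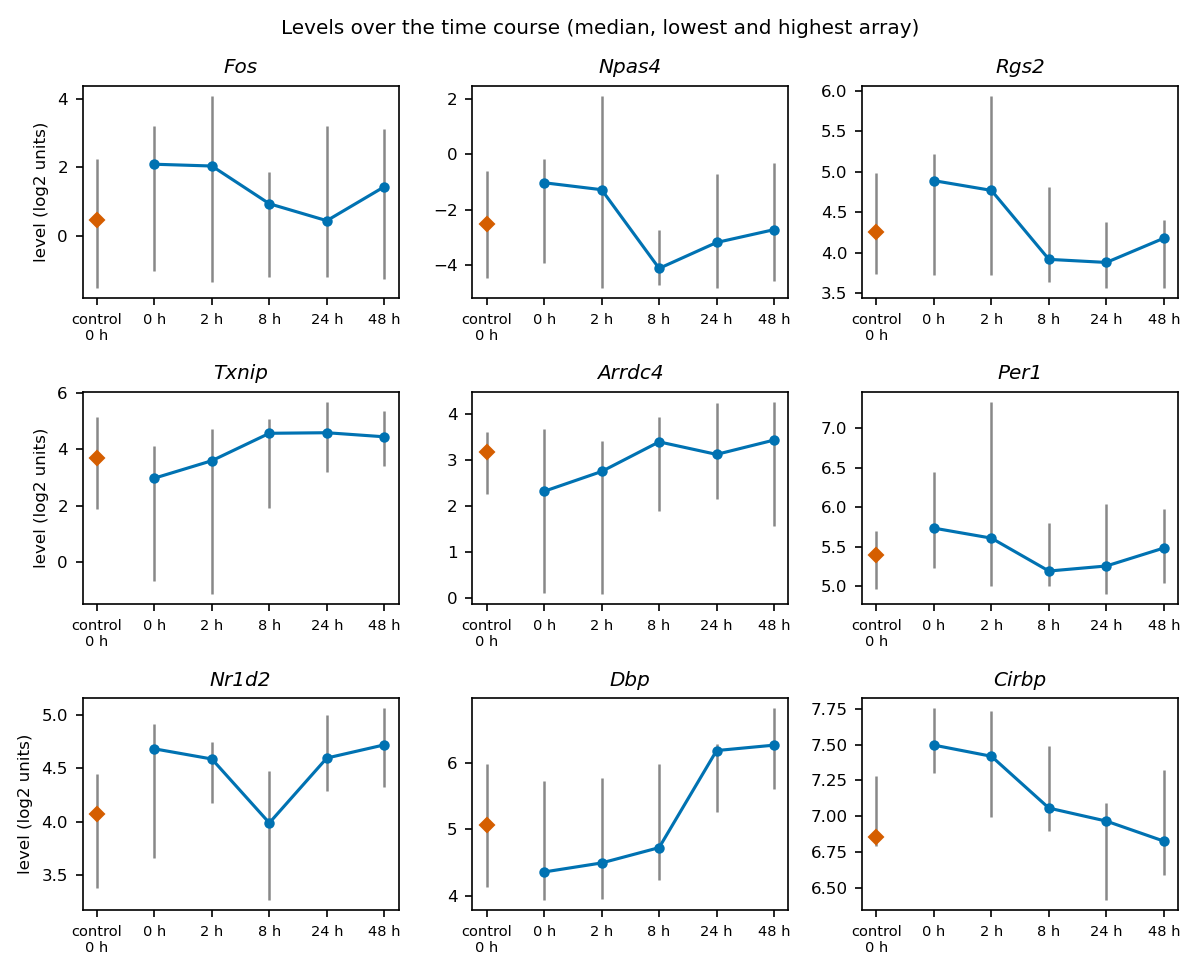
Level (log2 units, vertical axis) of 9 genes in untreated control cultures at 0 h (orange, 4 arrays) and in sham, 1 Hz and iTBS cultures together at each of the 5 times (blue), with the median as a point and the lowest and highest array as a line. Txnip and Arrdc4 reach their later level by 8 h, Nr1d2 dips at 8 h, and Dbp rises mainly after 8 h. The medians are not adjusted for the mix of series, which differs between the times.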

How the data were processed

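The deposited scanner files give, per spot, the processed signal of the authors, an intensity on a linear scale corrected for background (Agilent Feature Extraction, version 12.0.3.1; build rn4). The deposited value table holds a score per probe, the z-score that the authors computed within each array, and was used only to check the scaling. Log2 intensities of 58717 noncontrol spots were averaged per probe without outlier spots and converted to z-scores within each array, following the methods of the study, times the median SD of the arrays (4.04). Probes well above background on at least 3 of the 21 arrays were tested (32492). The fit was limma 3.58.1 in R 4.3.3, with arm and culture series as blocks, 14 residual and 2.45 prior degrees of freedom. Labels do not say whether replicates were separate cultures, so p-values measure the spread between these samples. The number of arrays limits the precision, and the 95% interval of the median probe is ± 0.24. The array of 1 Hz at 2 h replicate 2 failed (correlation -0.0101 with the others) and was left out of fits over all times. Symbols came from RefSeq (GRCr8) through accessions, for 46.3% of probes, and the probe with the highest mean stood for a gene. Of the genes that passed, 211 had several tested probes, and in 172 all probes had the same sign. Of 97 named genes 80 had a promoter entry.

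Named were the 12 largest rises and falls that held in all 9 matched pairs, up to 4 members per list, and a fixed set of activity, clock, cold, arrestin and stress genes (Hspa1b had no tested probe, and some genes that the rule names are not reported here); Atf3, Csf1, Csnk1e, Kcnq3, Nr4a3 and Sorcs3, and members given with values that did not pass, were named after their values were seen. The members, lists, tests and motifs were chosen with earlier results of these data known; the CRE half-site was added last. Functions were tested on simulated data. Same-series arrays deviated together (mean correlation 0.572, against -0.202 for different series), and same title numbers did not in every pair (lowest -0.35), so series was the block. Alternatives covered scaling, background correction, filters, blocks, slides, criteria of the methods and left-out arrays, series and arms.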

Additional observations from a re-analysis of the deposited data

Results flagged for a closer look

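The change of 10 named genes differed between the culture series, by the limma test of the series by time interaction. The adjusted p was 0.00456 for Txnip, 0.00853 for Atg16l2, 0.0141 for Ccl20, 0.00373 for Csf1, 0.0252 for Nfkb2 and 0.0112 for Srsf9 among genes that rose, and 0.0155 for Nr4a3, 0.00198 for Pdgfrb and 0.0331 for Srebf1 among genes that fell. Gfap, which did not pass on average, had 0.000461. Among series B, C and D the change of all 10 genes was farthest from 0 in B, for example 1.60 for Csf1 against 0.20 in series C and 0.19 in series D, and -1.29 for Pdgfrb against -0.23 and -0.11. Series A, with 1 array at 8 h, entered the same test, and there Gfap changed by -1.44, Atg16l2 by -0.55 and Txnip by 0.07. Without that array, 1 Hz at 8 h replicate 1, the test passed in 155 probes against 1248. Series B arrays at 0 h lay on slide 3 and its 8 h arrays on slides 3 and 4, and the part of the slide in these differences was not tested.

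In groups of 4 arrays, 1 array stood far from the other 3 in 5 of 129 combinations of gene and group. Chance gives about 1 in 20 for arrays drawn alike, but each group held 1 array of each of series A to D. That rate therefore does not apply here, and a level particular to a series is counted as well. The gap to the nearest array, as a share of the whole range, was 0.979 for Dbp in iTBS at 0 h (replicate 2 high), 0.896 for Slc45a3 in 1 Hz at 8 h (replicate 3 high), 0.846 for Ctrc in iTBS at 0 h (replicate 1 high), and 0.836 for both Cd55 and Dusp1 in 1 Hz at 8 h (replicate 4 high). The Dbp array was of series C, at 5.67, and the highest Dbp level was 5.72 in both sham and 1 Hz at 0 h.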

How the results depend on the processing

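No named gene that passed turned its direction under any alternative, and the 86 named genes that passed kept to the threshold in 83 cases with 75th percentile scaling, 72 with normexp, 73 with slide as a random block, 46 in the fit with all arrays, 28 with slide as a fixed block, 19 with the replicate block, 12 without culture series B, 7 with no series block and none over the means of each series and time. The count of probes that passed (2088) was 902 in the fit with all sham, 1 Hz and iTBS arrays, 122 with no series block, 713 with slide as a fixed block, 304 by the methods' criteria, 3287, 193, 350 and 808 without culture series A, B, C and D, 186 without A and B, and 390, 247 and 531 without sham, 1 Hz and iTBS cultures. The fixed slide block and the removal of A and B together were chosen after seeing the data. Over the means of each series and time no probe passed (0 by limma, 2454 unadjusted, smallest adjusted p 0.56). Leaving out 1 array at a time gave 1294 to 3054 probes, 1 to 636 within sham, 0 to 31 within 1 Hz, 3 to 1745 within iTBS, 0 to 3 for the difference between arms and 155 to 2275 for that between series. Of the 21 fits that each leave out 1 array, Npas4, Fos, Txnip, Arrdc4, Nr1d2 and Cirbp passed in all 21, but Arrdc3 in 14, P4ha1 in 10, Csf1 and Gria4 in 9, Srpk1 in 8, Csnk1e in 7, Kcnq3 in 6, Per2, Srebf1 and P4ha2 in 5, Kcnk10 in 4 and Sorcs3 in 3.

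Within sham 228 probes passed among those well above background on every array and 52 with no filter. Within 1 Hz the count was 23 with 75th percentile scaling, 2 with normexp and 19 on every array. Within iTBS it was 1 with 75th percentile scaling, 9 with quantile normalization, 2 with normexp, 378 on every array and 6 with no filter. Arms differed in 1 probe and series in 2060 with 75th percentile scaling, and series in 3648 with normexp. With no series block limma called 0 probes within sham (1394 unadjusted), 0 within 1 Hz (1078 unadjusted) and 2 within iTBS, 102 for 8 h against 2 h, 307 for 24 h and 2447 for 48 h against 8 h.

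The replicate number in the titles does not pair the samples, and with it as a block in place of the series 345 probes passed, 0 within sham (2229 unadjusted), 0 within 1 Hz (2219 unadjusted) and 2 within iTBS, 155 for the difference between series, 232 for 8 h against 2 h, 1455 for 24 h and 4187 for 48 h against 8 h. The cause of these shifts was not tested. A block for the scan date was not run because all arrays were scanned on 1 day. Probes near background, such as Npas4 at 8 h, give bounds only.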
